A study of Mus musculus with 9 samples.

Results

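The 10 genes described are genes of activated fibroblasts and of the signals that surround the epithelium, followed through the colon of mice with dextran sodium sulfate (DSS) colitis and mice with DSS colitis that received electroacupuncture (EA). They are Pdgfra, Pdpn, Fap, Inhba, Tnc, Grem1, Rspo3, Wnt5a, Wnt2b and Bmp4, 10 of the 27719 genes and loci in the count table. The choice was made by symbol, with earlier results of these data known, so counts of these genes called are a description. All 9 mice were C57BL/6J mice, with 3 mice in each of 3 groups, and their age is not given in the sources used here. The control group drank distilled water, and the DSS group drank 2.5% DSS for 7 days. The DSS + EA group drank the same DSS and, after 5 days of modelling, was treated for 5 days at the ST36 acupoint on both sides, 30 min a day at 2 Hz and 0.2 mA. Control and DSS mice were held for 30 min without needles or current, so needling and current cannot be told apart in these groups. RNA came from whole colon tissue, in which fewer cells of a type and less RNA per cell cannot be told apart.

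PDGFRA is a receptor for platelet-derived growth factors and marks most gut fibroblasts, with its highest levels in telocytes at the base of the epithelium. Fibroblasts that respond to injury raise matrix proteins, surface glycoproteins and secreted factors, among them activin, interleukins and BMP antagonists. Below the crypt, fibroblasts provide R-spondins, Wnt ligands and BMP antagonists that keep stem cells dividing, while BMP ligands nearer the surface favour differentiation. Such stromal signals are known to be rearranged in colitis.

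Library totals lay between 2627695 and 4235576 counts, so a floor of 3 counts was worth 0.647 to 1.14 CPM, the unit of level used here, in which each library total is adjusted by TMM. DSS + EA mice 2 and 3 stood apart in 11 genes for digestive enzymes of the pancreas, which held 2.70% and 1.27% of their counts. The same genes held 0.0536% in DSS + EA mouse 1 and between 0.00424% and 0.0897% in the other 6 mice. Values of the 9 genes tested and calls in the lists are also given with DSS + EA mouse 1 as the sole mouse of its group. Across the 9 mice, summed levels of 6 epithelial markers lay between 696 and 4683 CPM and of 6 smooth muscle markers between 1127 and 3499 CPM. These markers were not chosen to tell the colon from other gut tissue.

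The stretch of 250 bases before the start of transcription is shown for Grem1 and Bmp4, from the RefSeq promoter table of GRCm38.p6, because they are an antagonist and a ligand of one pathway whose levels are set against each other here. Promoters of 7 of the 10 genes were in the table. Grem1 lies on chromosome 2 from 113746164 to 113758646 and Bmp4 on chromosome 14 from 46383520 to 46390669 (GENCODE M21, GRCm38), both on the minus strand. Capitals mark the motif found. The Grem1 stretch is chr2:113758649-113758898 and that of Bmp4 is chr14:46390670-46390919, which held none of the motifs searched.
Grem1: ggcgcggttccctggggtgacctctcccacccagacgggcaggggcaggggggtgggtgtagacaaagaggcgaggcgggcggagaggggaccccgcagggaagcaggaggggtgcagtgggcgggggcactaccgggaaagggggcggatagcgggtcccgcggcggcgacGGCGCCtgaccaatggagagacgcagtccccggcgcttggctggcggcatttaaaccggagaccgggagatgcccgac
Bmp4: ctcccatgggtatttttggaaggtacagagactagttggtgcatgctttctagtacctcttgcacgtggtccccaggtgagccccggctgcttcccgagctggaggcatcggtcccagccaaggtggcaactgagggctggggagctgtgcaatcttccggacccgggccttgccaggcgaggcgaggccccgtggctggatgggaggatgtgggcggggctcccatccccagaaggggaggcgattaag
The capitals in Grem1 are the GC element GGCGCC, known to be bound by SMAD proteins of the BMP pathway, at bases 78 to 73 before the start. It occurred in 9.59% of the 32851 promoters of the same length, and Wnt2b held it at 2 places. The NF-kB motif GGGANNTCC, in 3.59% of all promoters, matched on the opposite strand at bases 38 to 30 before 1 of the 2 starts of Tnc. Both strands were searched. The AP-1 motif TGANTCA, the TCF/LEF motif ATCAAAG and the TEAD motif GGAATG, which occurred in 6.75%, 3.21% and 12.6% of all promoters, were not in these windows of the 7 genes. The Grem1 stretch was 72.0% G or C and that of Bmp4 63.2%, with a median of 52.4% over all promoters.

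In the DSS group, fibroblast and niche signal genes were mostly above the control group. At an adjusted p under 0.05 (edgeR quasi-likelihood test, adjusted over 12566 genes), 7 of the 9 genes tested rose: Pdgfra, Pdpn, Fap, Inhba, Tnc, Grem1 and Rspo3. Among all genes tested, 21.5% were called higher in that comparison and 19.5% lower, and the DSS and control mice did not overlap for the same 7 genes, beside 26.1% of all genes in the higher direction. Of the 7, Pdpn, Inhba, Grem1 and Rspo3 also met the thresholds of a differentially expressed gene (DEG), a log2 fold change beyond 2.5 and an unadjusted P under 0.01, which 6.62% of all genes met in the higher direction. Wnt5a and Bmp4 did not pass the test, and Wnt2b was too low to be tested. Fap and Inhba passed the filter on low counts mainly through the DSS group, where 3 of 3 mice were above its limit of 3.10 CPM against 0 of 3 control mice, so that the share of genes called is a description and not a measure of how common the rise is.

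**Figure D1:**
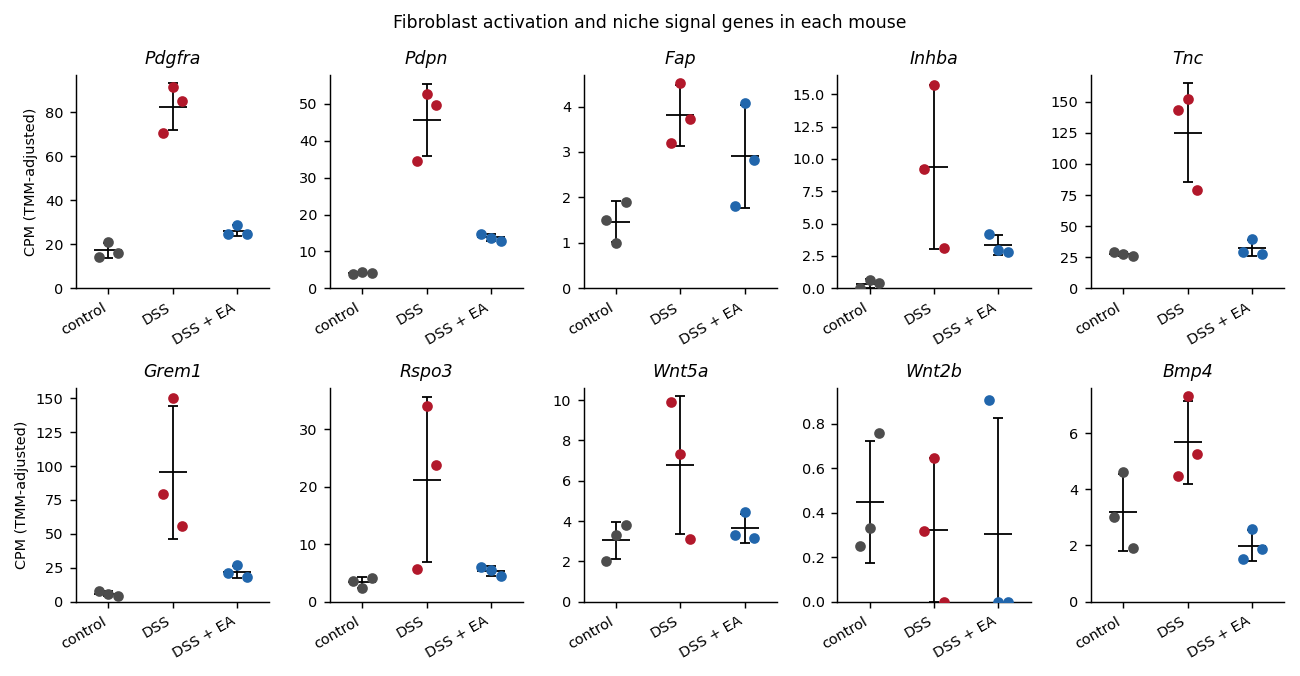
TMM-adjusted CPM of the 10 genes in each mouse (points), with the mean and SD of 3 mice (black, cut at 0 where the SD reaches below it). Each panel has its own axis from 0, and the DSS mice sit above all control mice for 7 genes, while Wnt5a, Wnt2b and Bmp4 overlap.

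In the DSS + EA group, 6 of the 9 genes tested fell against the DSS group: Pdgfra, Pdpn, Tnc, Grem1, Rspo3 and Bmp4. Among all genes, 18.3% were called lower in that comparison and 17.2% higher. Bmp4 passed the filter on low counts mainly through the DSS group, so the share of genes called lower is a description here too. The groups did not overlap for 5 of the 9, all but Rspo3 of the 6, beside 23.3% of all genes in the lower direction, and no log2 fold change of the 6 reached the DEG thresholds, which 3.5% of all genes met in the lower direction. Against the control group, 2 of the 9 genes tested were higher in the DSS + EA group, Pdpn and Grem1, beside 3% of all genes called higher and 0.637% called lower. Inhba alone met the DEG thresholds there, beside 1.74% of all genes, and Pdgfra, Pdpn, Inhba, Grem1 and Rspo3 did not overlap with the control mice, beside 18% of all genes. The DSS mice enter both of the first comparisons, so a high DSS value raises the fold change of one and lowers that of the other. With DSS + EA mouse 1 alone, in which pancreatic genes were low, the calls against the DSS group dropped to 3 (Pdgfra, Pdpn and Tnc) and those against the control group to 0 (3 at an unadjusted p under 0.05, edgeR), in a fit that assumes the lone mouse varies as the others do. In that fit 2.05% of all genes were called lower against the DSS group and 0.36% higher against the control group. The log2 fold changes against the DSS group were then -1.73 for Pdgfra, -1.60 for Pdpn, -2.08 for Tnc, -1.05 for Fap, -1.14 for Inhba, -2.15 for Grem1, -1.79 for Rspo3, -1.0 for Wnt5a and -1.88 for Bmp4.

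**Figure D2:**
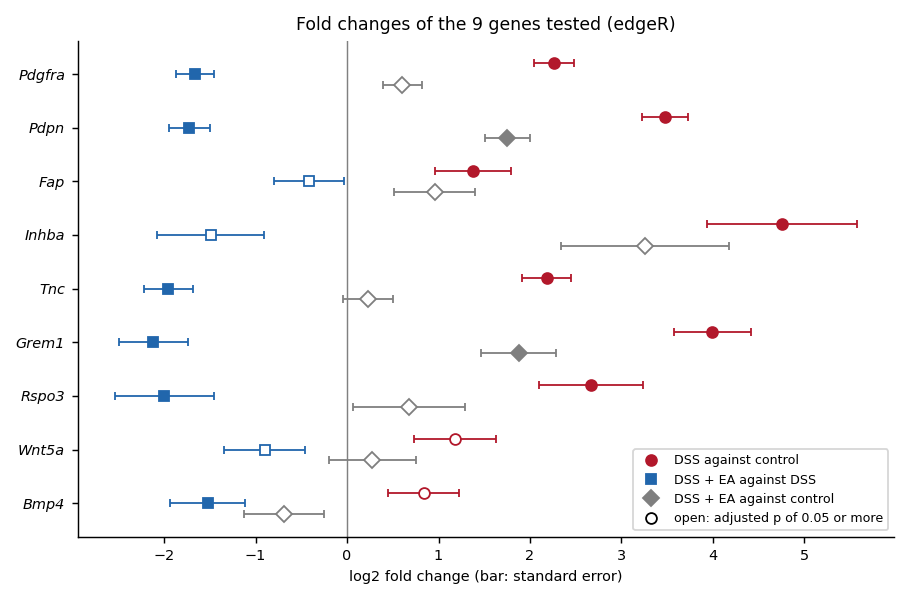
Log2 fold change with its standard error for the 9 genes tested, for DSS against control (red circles), DSS + EA against DSS (blue squares) and DSS + EA against control (grey diamonds). Filled symbols have an adjusted p under 0.05, which holds for 7, 6 and 2 genes, and the DSS against control values run from 0.84 for Bmp4 to 4.76 for Inhba.

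Pdgfra (chromosome 5, 75152292 to 75198215, plus strand) had 57, 64 and 42 counts in controls, 221, 424 and 275 in DSS mice and 81, 78 and 79 in DSS + EA mice. In CPM this was 17.2 ± 3.52 (SD, n = 3) in controls, 82.4 ± 10.7 in DSS mice and 26.1 ± 2.45 in DSS + EA mice. All 3 DSS mice lay above every other mouse, and the DSS + EA mice lay above every control mouse. Pdgfra rose in the DSS group with a log2 fold change of 2.26 ± 0.22 (SE, adjusted p = 8.64e-05). It fell by 1.66 ± 0.21 on the log2 scale with EA, that is in the DSS + EA group against the DSS group (adjusted p = 0.000677), and the DSS + EA against control difference of 0.60 ± 0.21 did not pass the test (adjusted p = 0.18).

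Pdpn encodes podoplanin, a surface glycoprotein that binds CLEC-2 on platelets and is raised in activated fibroblasts, and it is also a marker of lymphatic endothelium. Its counts (chromosome 4, 143267431 to 143299564, minus strand) were 15, 13 and 11 in controls, 108, 244 and 161 in DSS mice and 49, 37 and 41 in DSS + EA mice. The 3 groups did not overlap, with the DSS mice highest and the DSS + EA mice between them and the control mice. Levels were 4.08 ± 0.267 CPM in controls, 45.6 ± 9.77 in DSS mice and 13.8 ± 0.950 in DSS + EA mice. The log2 fold change was 3.48 ± 0.25 in the DSS group against the control group (adjusted p = 2.06e-05), the smallest P of the 9 genes. Pdpn fell by 1.72 ± 0.22 in the DSS + EA group against the DSS group (adjusted p = 0.000688). It stayed 1.75 ± 0.25 above the control group on the log2 scale (adjusted p = 0.00625), though not with DSS + EA mouse 1 alone (1.84, adjusted p = 0.112). Lymphatic endothelial markers, which Pdpn shares, moved alongside it. Of the 5 tested, 4 rose in the DSS group (Lyve1, Mmrn1, Ccl21a and Reln, median of the list 1.25), beside 21.5% of all genes called higher. In the DSS + EA group 4 fell against the DSS group, beside 18.3% of all genes called lower. The summed level of the lymphatic markers was 185 to 209 CPM in controls, 369 to 545 in DSS mice and 238 to 265 in DSS + EA mice, and its part in the Pdpn values was not tested.

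Fap encodes a surface serine protease of activated fibroblasts that cuts after proline. It (chromosome 2, 62500943 to 62574075, minus strand) had 6, 3 and 5 counts in controls, 10, 21 and 12 in DSS mice and 6, 11 and 9 in DSS + EA mice. The DSS mice lay above all control mice, and the DSS + EA mice overlapped both other groups. Fap rose by a log2 fold change of 1.38 ± 0.42 in the DSS group (adjusted p = 0.0249), a call that was lost with DESeq2 (adjusted p = 0.0981), without a filter on low counts (0.0515), without control mouse 1 or 2 or DSS mouse 2 (0.0779 to 0.109) and with DSS + EA mouse 1 alone (0.0584). The DSS + EA against DSS difference of -0.42 ± 0.38 had an adjusted p of 0.414.

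Tnc encodes tenascin C, a matrix glycoprotein of healing tissue. It (chromosome 4, 63959785 to 64047015, minus strand) had 115, 84 and 68 counts in controls, 449, 708 and 256 in DSS mice and 97, 108 and 88 in DSS + EA mice. DSS mouse 3 was the lowest of its group, yet it stood above every control and DSS + EA mouse, while the latter groups overlapped. Levels of 27.5 ± 1.58 CPM in controls, 125 ± 39.9 in DSS mice and 32.3 ± 6.70 in DSS + EA mice gave a rise of 2.18 ± 0.27 on the log2 scale (adjusted p = 0.000319). Tnc fell by 1.95 ± 0.27 with EA (adjusted p = 0.000971), and the DSS + EA against control difference was 0.23 ± 0.27 (adjusted p = 0.72).

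Among the other tenascins, matrix genes and receptors related to tenascin C, FAP and podoplanin, 5 of 10 tested rose in the DSS group and 0 fell, with a list median of 1.19 beside 0.02 for all genes. These were Sparc, Fn1, Sdc4, Itgav and Postn. In the DSS + EA group, 7 had fallen against DSS mice, and Dpp4, a protease related to FAP, and Itgb6 were higher. Beside this, 21.5% of all genes were called higher in the DSS group, and 18.3% lower and 17.2% higher with EA. The 2 of 10 called higher with EA were near that last share. Sparc, a collagen-binding protein, had 155 CPM in controls, 867 in DSS mice and 375 in DSS + EA mice on average. Genes kept by the filter through the group in which they are high can differ in that direction more easily, which holds for every list count given here.

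Inhba encodes the beta A subunit of activin and inhibin, and 2 of these subunits form activin A, a ligand of the TGF-beta family. It (chromosome 13, 16011851 to 16031621, plus strand) had 0, 2 and 1 counts in controls, 29, 73 and 10 in DSS mice and 14, 8 and 9 in DSS + EA mice. Control mice lay below all others, and DSS mouse 3 lay within the range of the DSS + EA mice. With 112 counts in the DSS group against 3 in the control group, the ratio adjusted for library size was 32.7 (95% interval 10.9 to 161, exact binomial, counting error only). The fitted log2 fold change of 4.76 ± 0.82 passed the test (adjusted p = 0.00167), and its size depends on the prior count (3.45 with a prior count of 2). It was 5.60 without control mouse 2, 4.06 without control mouse 1 and 4.14 without DSS mouse 2, and passed the test in each of these fits. The DSS + EA against DSS difference of -1.49 ± 0.58 did not pass (adjusted p = 0.0685), but did without DSS mouse 3 (-1.93, adjusted p = 0.0145), and was -0.88 without DSS mouse 2 (adjusted p = 0.279). The DSS + EA to control ratio was 10.8 (3.38 to 55.3), which met the DEG thresholds but not the adjusted p (0.0907), except with DESeq2 (0.0328) and without DSS mouse 3 (0.0319).

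Inhbb, which encodes the other activin subunit, averaged 2.21 CPM in controls, 20.8 in DSS mice and 6.15 in DSS + EA mice, and passed in both of the first comparisons (3.19 ± 0.43, adjusted p = 0.000486, and -1.75 ± 0.39, adjusted p = 0.00755). In the list of activin and TGF-beta genes, 7 of 9 tested rose in the DSS group and 0 fell (median 1.88), and 6 fell with EA. Of all genes, 21.5% were called higher in the DSS group and 18.3% lower with EA. Tgfbr2 and Tgfbr3, which encode a signalling receptor and a co-receptor, rose by 1.88 ± 0.27 and 2.93 ± 0.28, and Tgfbi, a matrix gene induced by TGF-beta, by 3.04 ± 0.41. Fst, which encodes follistatin, the secreted inhibitor that binds activin, was singled out after its values were seen. It had 2 to 11 counts in controls, 22 to 151 in DSS mice and 2 to 6 in DSS + EA mice, and both changes passed the test (adjusted p = 0.00606 and 0.00692).

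Grem1 encodes gremlin 1, a secreted antagonist that binds BMP2 and BMP4. It had 31, 18 and 10 counts in controls, 249, 698 and 181 in DSS mice and 70, 72 and 58 in DSS + EA mice. The 3 groups did not overlap, and DSS mouse 2 had 2.69 times the CPM of the lowest DSS mouse. Mean levels were 5.85 ± 2.01 CPM in controls, 95.3 ± 49.2 in DSS mice and 22.0 ± 4.28 in DSS + EA mice. Grem1 rose by 4.0 ± 0.42 on the log2 scale in the DSS group (adjusted p = 0.000142) and fell by 2.12 ± 0.38 with EA (adjusted p = 0.00289), or by 2.15 with DSS + EA mouse 1 alone (adjusted p = 0.0854). The DSS + EA group stayed 1.88 ± 0.41 above the control group (adjusted p = 0.0362). This last call was lost when any one control or DSS + EA mouse was left out (adjusted p 0.0851 to 0.131) and with library totals in place of TMM (0.0592).

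Bmp4 encodes a BMP ligand of subepithelial fibroblasts. It had 12, 14 and 5 counts in controls, 14, 34 and 17 in DSS mice and 5, 7 and 6 in DSS + EA mice, so each DSS + EA mouse had fewer than 10. The DSS and control mice overlapped, and every DSS + EA mouse lay below every DSS mouse. Bmp4 passed the filter on low counts mainly through the DSS group. At or above its limit of 3.10 CPM were 3 of 3 DSS, 2 of 3 control and 0 of 3 DSS + EA mice. Its call against the DSS group is therefore a description. The rise of 0.84 ± 0.38 in the DSS group did not pass (adjusted p = 0.109), and Bmp4 fell by 1.52 ± 0.41 with EA (adjusted p = 0.018). That call was lost without DSS mouse 2, DSS + EA mouse 1 or DSS + EA mouse 3 (adjusted p 0.0641 to 0.0712) and with DSS + EA mouse 1 alone (0.144).

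The ratio of Grem1 to Bmp4 counts in one library does not depend on how libraries are scaled, and its level is not corrected for the lengths of the genes. As log2 of (Grem1 + 0.5)/(Bmp4 + 0.5) it was 1.33, 0.35 and 0.93 in controls, 4.10, 4.34 and 3.37 in DSS mice and 3.68, 3.27 and 3.17 in DSS + EA mice. Every mouse given DSS lay above every control mouse, and the DSS and DSS + EA mice overlapped. The difference was 3.07 between the DSS and control groups, -0.57 between the DSS + EA and DSS groups and 2.50 between the DSS + EA and control groups. A two-sided exact permutation test over 3 comparisons gave p = 0.1, 0.2 and 0.1 (Benjamini-Hochberg 0.15, 0.2 and 0.15), and 0.1 is the smallest p that 3 mice against 3 can give.

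**Figure D3:**
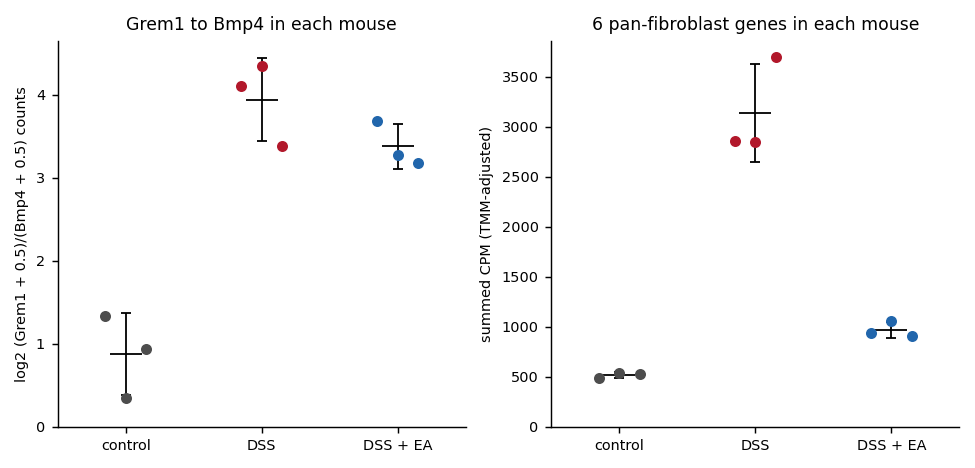
Left, the log2 ratio of Grem1 to Bmp4 counts in each mouse, and right, the summed CPM of 6 pan-fibroblast genes (Dcn, Lum, Dpt, Serping1, Pcolce and Fbln1), with means and SD of 3 mice in black. The DSS + EA mice reach 3.17 to 3.68 on the left, within or near the DSS mice, while on the right they lie at 910 to 1057, nearer to the control mice at 483 to 542 than to the DSS mice at 2843 to 3699.

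Other BMP antagonists also changed. Of 11 tested, 8 rose in the DSS group and 0 fell, with a median log2 fold change of 2.68 beside 0.02 for all genes, and 7 fell in the DSS + EA group against the DSS group, with a median of -1.53 beside -0.02. Of all genes, 21.5% were called higher in the DSS group and 18.3% lower with EA. Fstl1, a secreted follistatin-like glycoprotein, averaged 30.4 CPM in controls, 194 in DSS mice and 68.9 in DSS + EA mice, and was the only one to stay above the control group (1.18 ± 0.21, adjusted p = 0.015). Chrd, which encodes chordin, rose from 1.96 to 19.6 CPM and was at 4.63 with EA. Nbl1, of the same DAN family as gremlin, rose from 18.5 to 65.4 and was at 14.0 with EA. Chrdl2 and Sostdc1 were also higher in the DSS group and lower with EA. Among other genes listed as BMP ligands, 1 of 4 tested rose, Bmp1, which encodes a procollagen and chordin protease and not a ligand, and Bmp2, Bmp3 and Bmp5 did not pass in either comparison. BMP receptors rose for 4 of 6 tested (Bmpr2, Acvrl1, Acvr1 and Acvr2a, median 1.58), and 3 of them fell with EA.

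BMP target genes moved in both directions. Id1, a transcription inhibitor induced by BMP, averaged 209 CPM in controls, 95.3 in DSS mice and 175 in DSS + EA mice, a fall of 1.13 on the log2 scale (adjusted p = 0.0118) and a rise of 0.87 with EA (adjusted p = 0.0394). Id2 rose from 43.0 to 402 CPM, with an SD of 310 CPM and 446 to 2407 counts in DSS mice, and was at 48.8 with EA. Id3 rose from 260 to 399.6 and was at 198 with EA. The remaining 3 of 6 tested did not pass in these comparisons. In the DSS group 21.5% of all genes were called higher and 19.5% lower. Id2 is also expressed by leukocytes, whose 6 markers all rose in the DSS group, with a summed level of 364 to 405 CPM in controls, 822 to 2811 in DSS mice and 598 to 720 in DSS + EA mice. Their part in the Id2 values was not tested.

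Rspo3 encodes R-spondin 3, which raises the Wnt receptors of stem cells at the surface. It (chromosome 10, 29452416 to 29535867, minus strand) had 14, 7 and 11 counts in controls, 18, 158 and 77 in DSS mice and 20, 15 and 14 in DSS + EA mice. The DSS mice differed among themselves more than in any other of the 9 genes tested, by 5.93 times in CPM, with DSS mouse 1 at 5.74 CPM beside 34.1 and 23.8 in the others, and this mouse lay within the DSS + EA range of 4.41 to 6.04. All DSS mice were above all control mice. Rspo3 rose by 2.67 ± 0.57 (adjusted p = 0.00494) in the DSS group. It fell by 2.00 ± 0.54 with EA (adjusted p = 0.018), a call that was lost without DSS mouse 2, DSS + EA mouse 2 or DSS + EA mouse 3 (0.052 to 0.0717) and with DSS + EA mouse 1 alone (0.222).

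Wnt5a encodes a ligand of mainly non-canonical Wnt signalling, made by fibroblasts near the epithelium. It (chromosome 14, 28504750 to 28527448, plus strand) had 8, 10 and 10 counts in controls, 31, 34 and 10 in DSS mice and 11, 12 and 10 in DSS + EA mice. DSS mice 1 and 2 were above all other mice, and DSS mouse 3 lay among the control and DSS + EA mice. Neither the DSS against control difference of 1.18 ± 0.45 (adjusted p = 0.0597) nor the DSS + EA against DSS difference of -0.90 ± 0.44 (adjusted p = 0.134) passed, and both passed without DSS mouse 3 (1.52, adjusted p = 0.0125, and -1.27, adjusted p = 0.0288). Without DSS mouse 1 the differences were 0.81 (adjusted p = 0.171) and -0.53 (adjusted p = 0.361). Wnt2b, which encodes a canonical Wnt ligand of stromal cells (chromosome 3, 104945272 to 104961921, minus strand), had 1, 1 and 2 counts in controls, 1, 3 and 0 in DSS mice and 3, 0 and 0 in DSS + EA mice, so a difference was not detectable at this depth.

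None of the 20 other Wnt and R-spondin ligands listed reached the level needed for a test in this depth of sequencing, and their summed level was 2.64 to 6.46 CPM in controls, 7.12 to 14.0 in DSS mice and 3.32 to 4.45 in DSS + EA mice. Wnt4 had 1 to 2 counts in controls, 2 to 26 in DSS mice and 1 to 3 in DSS + EA mice, and was named after its values were seen. Of the secreted Wnt inhibitors, 3 of 4 tested rose in the DSS group and fell with EA, namely Sfrp1, Dkk3 and Frzb. Sfrp1 averaged 8.08 CPM in controls, 89.2 in DSS mice and 32.1 in DSS + EA mice, and stayed above the control group by 1.98 ± 0.30 (adjusted p = 0.00785). Among Wnt and R-spondin receptors, Fzd1 and Fzd4 rose and Fzd5, a receptor of the epithelium, fell among 9 tested in the DSS group (median 0.60). With EA, 4 of the 9 fell (Fzd1, Fzd4, Lrp5 and Ryk). Of 9 canonical Wnt target genes tested, Cd44 and Nkd1 were higher and Ascl2 and Sox9 lower in the DSS group (median -0.73). These counts were near the 21.5% of all genes called higher and the 19.5% called lower. Ascl2, a transcription factor of stem cells, averaged 8.86 CPM in controls, 1.38 in DSS mice and 4.07 in DSS + EA mice. Cd44 is also expressed by leukocytes and by activated fibroblasts.

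PDGF genes were few at this depth, and all 3 tested passed in the DSS group. Among all genes, 21.5% were called higher and 19.5% lower there. Pdgfrb, the sister receptor of PDGFRA, rose by 1.83 ± 0.28 (adjusted p = 0.000836) and fell by 1.33 ± 0.27 with EA (adjusted p = 0.0051). Pdgfc rose by 1.39 ± 0.44 (adjusted p = 0.0287), and Pdgfa, a ligand made by epithelium, fell by 1.14 ± 0.40 (adjusted p = 0.0456). The summed level of 5 pericyte markers, which share Pdgfrb with fibroblasts, was 123 to 147 CPM in controls, 270 to 311 in DSS mice and 118 to 152 in DSS + EA mice. Of the 4 pericyte markers tested, Kcnj8 and Abcc9 rose in the DSS group. Much of the higher sum in DSS mice lay in Kcnj8, which averaged 12.5 CPM in controls and 119 in DSS mice. Rgs5, which was not called, averaged 116 and 138.

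**Figure D4:**
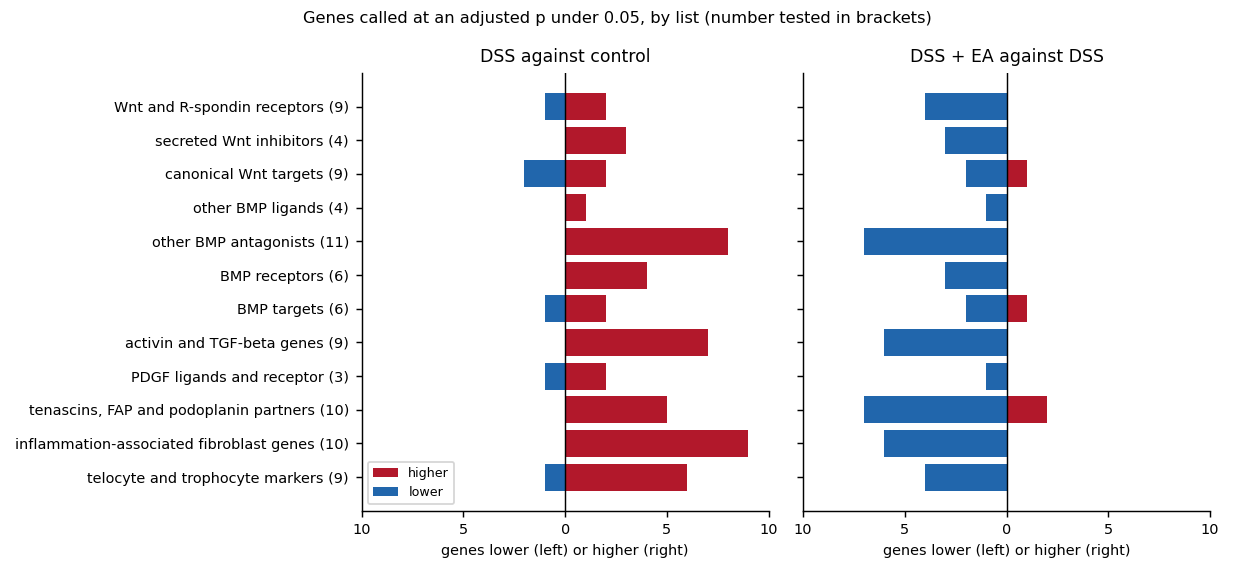
Number of genes called higher (right, red) or lower (left, blue) at an adjusted p under 0.05 in 12 lists of related genes, for DSS against control (left panel) and DSS + EA against DSS (right panel), with the number tested in brackets. BMP antagonists (8 of 11 higher, then 7 of 11 lower) and activin and TGF-beta genes (7 of 9, then 6 of 9) show mostly one direction in each comparison, and canonical Wnt targets and BMP targets show both. Among all 12566 genes tested, 21.5% were called higher and 19.5% lower in the left panel's comparison. In that of the right panel, 17.2% were called higher and 18.3% lower.

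Genes linked to inflammation-associated fibroblasts rose for 9 of 10 tested (median 3.51) and 6 fell with EA. Beside this, 21.5% of all genes were called higher in the DSS group and 18.3% lower with EA. Il1r1, an interleukin 1 receptor, rose from 22.0 to 227 CPM and was at 32.5 with EA, Osmr, the receptor of oncostatin M, rose from 2.81 to 26.1 and was at 6.52 with EA, and Il33, an alarmin, stayed above the control group (2.71 ± 0.64, adjusted p = 0.0489). Telocyte and trophocyte markers rose for 6 of 9 tested and fell for 1, Ackr4, in the DSS group (median 1.24). Nrg1, a growth factor of subepithelial fibroblasts, averaged 1.69 CPM in controls, 32.7 in DSS mice and 5.40 in DSS + EA mice, and C3, a complement gene, 34.3, 480 and 201. Ackr3, a scavenger receptor for chemokines, rose by 2.71 ± 0.28 and fell by 2.67 ± 0.28 with EA. Foxl1, the transcription factor that defines telocytes, named after its values were seen, was at 0 to 5 counts in each of the 9 mice.

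With DSS + EA mouse 1 alone, fewer genes of the lists were called lower against the DSS group, beside 2.05% of all genes. These were 3 of 11 BMP antagonists (Chrd, Fstl1 and Nbl1, list median -1.66), 1 of 9 activin and TGF-beta genes (Tgfbr3, median -1.57), 0 of 4 secreted Wnt inhibitors (2 at an unadjusted p under 0.05, edgeR, median -1.62) and 2 of 10 genes linked to inflammation-associated fibroblasts (Il1r1 and Il6, median -1.54). Of the lists of tenascin partners, telocyte and trophocyte markers, pan-fibroblast genes and lymphatic endothelial markers, 1 of 10 (Sparc), 2 of 9 (Ackr3 and Nrg1), 1 of 6 (Dcn) and 1 of 5 (Lyve1) were called lower. Inhbb, Fst, Sfrp1, Pdgfrb, Dpp4, Itgb6, Id1, Id2 and Id3 lost their calls against the DSS group, at an adjusted p of 0.0670 to 0.216. Fstl1 (0.98, adjusted p = 0.446), Sfrp1 (1.82, adjusted p = 0.174) and Il33 (3.04, adjusted p = 0.283) lost those against the control group. The list counts and medians with EA elsewhere rest on all 3 DSS + EA mice.

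Markers of fibroblasts as a whole moved with the set. Of 6 pan-fibroblast genes, 5 rose in the DSS group and 3 fell with EA, beside 21.5% of all genes called higher and 18.3% called lower. Their summed level was 483 to 542 CPM in controls, 2843 to 3699 in DSS mice and 910 to 1057 in DSS + EA mice. Dcn, which encodes decorin, made up 52.3% to 55.8% of that sum in controls and 75.4% to 78.6% in the DSS mice, and rose by 3.10 ± 0.20, whereas Dpt rose by 0.73 ± 0.17, Pcolce by 0.88 ± 0.20, and Fbln1 was at -0.19 ± 0.47. With libraries scaled to that sum, the median log2 fold change of all genes was -2.55 in the DSS against control comparison and 1.65 in the DSS + EA against DSS comparison, beside 0.02 and -0.02 under TMM. Of all genes, 2.72% were then called higher and 87.1% lower in the first comparison, and 74.1% higher and 2.26% lower in the second. On that scale, Pdpn (0.90), Inhba (2.35) and Grem1 (1.46) were higher in the DSS group, Fap, Wnt5a and Bmp4 were lower, and Fap was the 1 gene called with EA, as higher (1.23, adjusted p = 0.0189). Scaled to the geometric mean of the 6 genes, in which each weighs the same, an alternative chosen after the data were seen, the median of all genes was -1.42 and 0.83. Of all genes, 6.34% were called higher and 71% lower in the DSS group, and 50.5% higher and 6.28% lower with EA. Pdgfra (0.82), Pdpn (2.03), Inhba (3.41), Tnc (0.76) and Grem1 (2.57) then rose, and Pdgfra (-0.80), Pdpn (-0.87), Tnc (-1.12) and Grem1 (-1.29) fell with EA. Fap, Wnt5a and Bmp4 were at or below 0 in the DSS against control comparison on both of these scales.

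**Figure D5:**
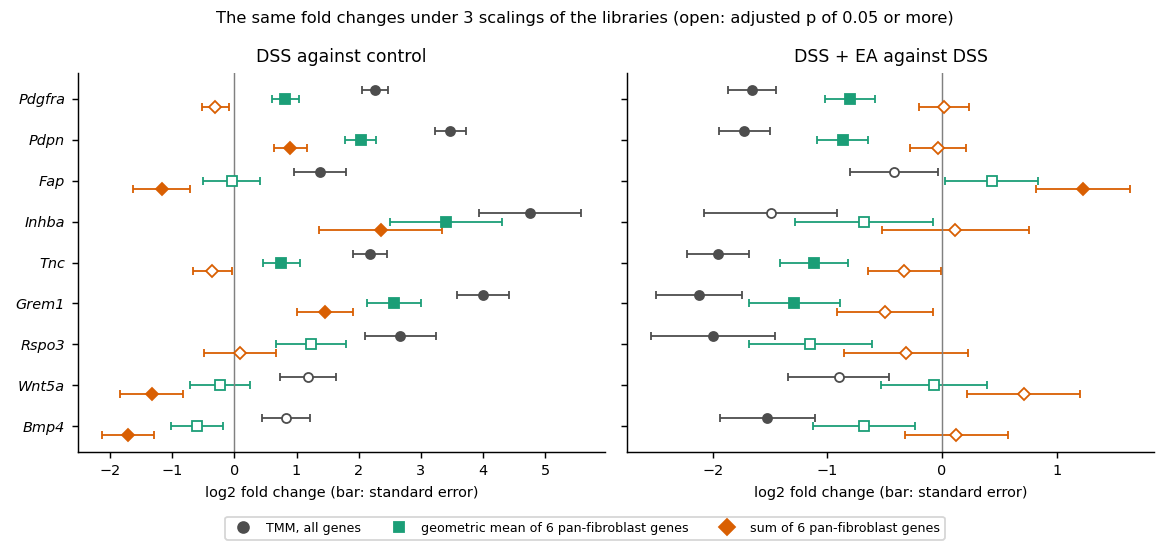
Log2 fold change with its standard error of the 9 genes under 3 scalings of the libraries, TMM over all genes (grey circles), the geometric mean of 6 pan-fibroblast genes (green squares) and their sum (orange diamonds). Filled symbols have an adjusted p under 0.05, and Pdpn, Inhba and Grem1 stay above 0 under each scaling in the DSS against control comparison. With EA most diamonds lie near or above 0, while the median of all genes on that scale was 1.65.

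Other cell types also shifted. Epithelial markers fell for 3 of 6 (Vil1, Krt20 and Cldn7) in the DSS group, and smooth muscle markers for 5 of 6 (median -0.98), with summed levels in the DSS group of 696 to 2800 and 1127 to 2159 CPM. Blood endothelial markers rose for 4 of 5, and glial markers for 2 of 3, beside 21.5% of all genes called higher and 19.5% called lower. Of 3 mesothelial markers tested, Msln rose in the DSS group and stayed above the control group with EA (not with DSS + EA mouse 1 alone, adjusted p = 0.152), and Krt19 of the same list is also an epithelial gene. What part these shifts have in the values of Pdgfra, Pdpn, Tnc, Grem1 and the others was not tested. Genes with a longest transcript over 6000 bases, among them Pdgfra, Inhba, Tnc and Wnt5a, had a median log2 fold change of 0.26 in the DSS against control comparison and -0.37 in the DSS + EA against DSS comparison, against -0.11 and 0.11 for genes of up to 1000 bases.

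The spread within the DSS group was uneven. DSS mouse 2 was highest in 8 of the 9 genes tested, the exception being Wnt5a, and was lowest in 0, while DSS mouse 1 was lowest in 5 and DSS mouse 3 in 4. The coefficient of variation among DSS mice was 13.0% for Pdgfra, 21.4% for Pdpn and 17.7% for Fap, and 67.5% for Inhba and 67.6% for Rspo3. Among DSS + EA mice it lay between 6.89% for Pdpn and 39.0% for Fap.

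As a description over the 9 mice, which differ by group, the 2 genes with a pattern most like each one were found by Pearson's r of log2(CPM + 1) among genes of at least 10 CPM. They were Pde4b and Scara5 for Pdgfra (r = 0.994 and 0.992), Mmp3 and Ifitm1 for Pdpn (0.996 and 0.995), Ece1 and 9530068E07Rik for Tnc (0.985 and 0.983) and Crispld2 and Col4a2 for Grem1 (0.987 and 0.984). For Rspo3 they were Mycbp2 and Ccl9 (0.982 and 0.971), for Inhba Ereg and Zc3h12a (0.972 and 0.956), for Fap Rbm27 and Islr (0.979 and 0.959), for Wnt5a 1810055G02Rik and Errfi1 (0.960 and 0.960) and for Bmp4 Haus2 and Rpl36 (0.962 and 0.956). Of the genes compared, 7.08% had an r over 0.9 with Pdgfra and 6.07% with Pdpn, but 0.181% with Fap.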

How the data were processed

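RNA from the colon of 9 mice was sequenced as amplified full-length cDNA on an Oxford Nanopore instrument. The values deposited by the authors are raw read counts for each gene, and 14 of the table's 27733 lines hold none and were skipped. The submitters' processing notes name the build mm10, while the aligner, the counter and the use of strand are not given in the sources used here. Pdgfra, Inhba, Tnc, Rspo3, Wnt5a, Wnt2b and Bmp4 overlap other annotated genes. Reads of those on the opposite strand cannot be told apart without strand. Mir7025 in Pdgfra, Gm20276 in Rspo3 and Gm43846 in Wnt2b lie on the same strand, where strand would not separate them. Of the overlapping genes only Gm15217, at Bmp4, is in the count table, with 0 counts. Positions come from GENCODE M21 (GRCm38).

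All 9 libraries entered one quasi-likelihood fit of edgeR 4.0.16 (R 4.3.3) with group as the only term, after TMM normalization and filterByExpr, which kept 12566 genes. The prior count was 0.125. Benjamini-Hochberg adjusted p-values under 0.05 were called, and the study's DEG thresholds (log2 fold change beyond 2.5 and P under 0.01) are given beside them. Each standard error is the log2 fold change over the square root of F. The functions were tested on simulated counts. Alternatives were DESeq2 1.42.0, RLE factors, library totals, no low-count filter, a filter at a mean of 20 counts, fits of 2 groups, a prior count of 2, a log2 fold change beyond 1, scaling to pan-fibroblast genes, the replicate number as a block, and each mouse left out in turn. Scaling to the geometric mean and DSS + EA mouse 1 alone were chosen after seeing the data. Descriptions and figures were made with Python 3.11.15, pandas 2.3.3 and matplotlib 3.10.9.

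The genes followed and the lists of related genes were chosen with earlier results of these data known. Named genes are the 10 themselves, at most 5 of each list by smallest P, genes that complete a count of 5 or fewer (chosen after their values were seen), and the 2 genes most alike in pattern, unless the text says otherwise. The labels name separate mice, with 3 mice per group. The edgeR p-values rest on a spread between mice that is pooled over the 3 groups and shared in part between genes. The spread of the DSS mice therefore also enters the DSS + EA against control comparison. PCR copies were not told apart, so intervals and floors cover counting error only.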

Additional observations from a re-analysis of the deposited data

How the results depend on the processing

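The calls in the DSS against control comparison (7 genes) and the DSS + EA against DSS comparison (6) stayed within 1.5 times under DESeq2, RLE factors, library totals, either filter, only the 2 groups compared, a log2 fold change beyond 1 and the replicate block, and those against the control group (2) moved to 1 with library totals and with a mean of at least 20 counts. Under the DEG thresholds the counts were 4, 0 and 1. Without one mouse they ranged from 6 to 8, 4 to 8 and 1 to 3. The log2 Grem1 to Bmp4 difference ranged from 2.81 to 3.35, -0.85 to -0.37 and 2.24 to 2.73 when one mouse was left out. With DSS + EA mouse 1 alone the counts against the DSS and control groups were 3 and 0, and with scaling to the geometric mean of the pan-fibroblast genes the count against the control group was 1.

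Scaled to the summed pan-fibroblast genes, 1 gene was called against the DSS group, Fap, as higher, where 74.1% of all genes were called higher. On that scale the DSS against control values reversed for Pdgfra (-0.31), Fap (-1.17), Tnc (-0.35), Wnt5a (-1.33) and Bmp4 (-1.71). The DSS + EA against DSS values reversed for Pdgfra (0.016), Fap (1.23), Inhba (0.12), Wnt5a (0.71) and Bmp4 (0.13), and the DSS + EA against control values for Pdgfra (-0.29), Tnc (-0.68), Rspo3 (-0.23) and Wnt5a (-0.62). On the geometric mean, the values reversed for Fap (-0.044), Wnt5a (-0.23) and Bmp4 (-0.60) in the DSS against control comparison, Fap (0.43) in the DSS + EA against DSS comparison, and Tnc (-0.36) and Wnt5a (-0.30) in the DSS + EA against control comparison. Both scalings shift all genes by construction, with 87.1% and 71% of all genes called lower in the DSS against control comparison.

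The replicate numbers are shared by different animals, and same-numbered mice deviated from their group means with correlations between -0.16 and 0.11. With the replicate number as a block the counts called were 6, 6 and 2, and Fap lost its call in the DSS against control comparison (log2 fold change 1.33, adjusted p = 0.0513). At 3 counts per mouse or fewer, as for Wnt2b, depth limits what can be seen.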
